A study of Mus musculus with 24 samples.

Results

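Collagen genes were described in RNA from 24 mouse tumour libraries. The members were the protein-coding genes whose GENCODE mm10 symbol has the form Col, number, a, number, which gave 44 genes of the 55335 measured, 11 fibrillar, 8 of basement membranes and 25 others. Tumours had grown from MC38 cells, a colon carcinoma line, or from B16 cells, a melanoma line. The cells were either parental CHEK2-WT (WT below) or CHEK2-knock out (KO), and the mice had received PBS or an anti-PD-1 antibody, which blocks a brake on T cells. The libraries fall into 8 groups of 3: MC38 WT PBS, MC38 KO PBS, MC38 WT anti-PD-1, MC38 KO anti-PD-1 and the same groups in B16. The knock-out is described for the tumour cells, so host cells in the KO tumours are not labelled as altered. The labels give no strain, age, sex, dose or time, no number of clones and no statement that replicate libraries are from different mice. Each p-value therefore measures only the spread between these libraries.

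Collagens are triple helices of 3 chains, and many types are built from the products of more than 1 gene. The fibrillar types I, III and V form the cables of connective tissue and are made in large part by fibroblasts. Type IV forms the sheet of basement membranes under epithelia and around vessels, and type VI forms beaded microfibrils around cells. In tumours, collagen is known as a major part of the stroma, and tumour cells can make some chains themselves. In bulk tissue, fewer cells of a type and less RNA per cell cannot be told apart.

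Values are FPKM, fragments scaled to transcript length and library size, so levels can be compared between genes. A gene was tested where at least 3 of the 12 libraries of a line reached 1 FPKM. Differences are on the log2(FPKM + 1) scale, which understates the change of low genes, and are given ± their standard error. A gene was called where the limma p-value, adjusted over all tested genes by the Benjamini-Hochberg method, was under 0.05. In a 24-library comparison of lines, the same filter over all libraries was used. FPKM summed to 375193 to 398474 in the 3 libraries of B16 KO anti-PD-1, to 319980 to 344059 in the other 9 of B16 and to 310868 to 339409 in MC38, and depth, estimated from the step size of low values, was 13450000 to 24080000 full-read equivalents. Chek2 itself was lower in every KO library than in every WT library of its line, at 1.92 to 3.37 FPKM against 4.61 to 6.14 in MC38 and at 5.64 to 6.75 against 7.17 to 9.29 in B16. The 7 melanocyte markers summed to 4885 to 6285 FPKM in B16 and to 1.01 to 4.03 in MC38. Of the 8 colon markers Vil1 and Cdx2 were below 0.1 FPKM in every MC38 library. Cdx2 was below 0.1 in every B16 library as well, and the other colon markers reached 0.1 in some MC38 libraries. Skeletal muscle RNA set some libraries apart: the summed FPKM of 8 muscle markers was over 100 in 5 libraries, namely B16 KO anti-PD-1 replicates 1 and 2, MC38 KO PBS replicate 1, MC38 WT anti-PD-1 replicate 2 and MC38 KO anti-PD-1 replicate 2. In B16 KO anti-PD-1 the 3 sums were 10.2 to 1942, and in the other 9 B16 libraries 1.2 to 3.07.

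The promoters of 4 members on which the comparisons turn are shown with their letters, as the 250 bases before the RefSeq gene start in build GRCm38.p6. Col3a1 was the highest collagen in MC38 and Col28a1 the highest in B16, while Col7a1 and Col8a1 were called in opposite directions in MC38 KO tumours. Capitals mark a GC box (GGGCGG or CCGCCC) or a TATA box (TATAAA or TTTATA). The Col3a1 window lies at chr1:45311288-45311537 on the plus strand, that of Col28a1 at chr6:8192618-8192867 on the minus strand, that of Col7a1 at chr9:108953336-108953585 on the plus strand and that of Col8a1 at chr16:57754738-57754987 on the minus strand.
Col3a1: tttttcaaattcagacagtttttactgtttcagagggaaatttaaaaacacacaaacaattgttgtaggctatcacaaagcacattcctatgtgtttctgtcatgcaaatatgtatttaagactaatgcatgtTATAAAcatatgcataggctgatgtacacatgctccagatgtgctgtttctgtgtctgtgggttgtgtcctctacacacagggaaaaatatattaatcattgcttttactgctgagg
Col28a1: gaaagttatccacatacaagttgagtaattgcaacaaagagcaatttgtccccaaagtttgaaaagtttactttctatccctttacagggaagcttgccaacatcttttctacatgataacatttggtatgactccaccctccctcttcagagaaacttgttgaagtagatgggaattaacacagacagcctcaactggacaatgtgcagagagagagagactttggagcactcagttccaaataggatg
Col7a1: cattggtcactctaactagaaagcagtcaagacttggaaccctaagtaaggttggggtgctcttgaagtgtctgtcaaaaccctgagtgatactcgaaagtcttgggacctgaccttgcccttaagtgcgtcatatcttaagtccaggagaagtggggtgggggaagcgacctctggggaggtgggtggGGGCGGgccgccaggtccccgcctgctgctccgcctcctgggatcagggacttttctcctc
Col8a1: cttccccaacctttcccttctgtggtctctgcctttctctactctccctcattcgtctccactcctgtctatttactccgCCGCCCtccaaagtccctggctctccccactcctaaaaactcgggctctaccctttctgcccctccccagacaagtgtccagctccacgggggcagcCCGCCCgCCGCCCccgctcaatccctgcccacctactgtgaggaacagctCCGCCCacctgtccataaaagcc

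The windows differed in base composition. G and C made up 35.2% of the Col3a1 window and 40.4% of the Col28a1 window, against 56.4% for Col7a1 and 60.8% for Col8a1. The Col8a1 window held 4 GC boxes between 170 and 23 bases before the start, the Col7a1 window held 1 GC box at 61 bases, the Col3a1 window held a TATA box at 117 bases, and the Col28a1 window held neither motif. RefSeq windows matched 35 of the 44 members, with 38 windows in all. Over both strands, 22 of the 38 windows (57.9%) held a GC box against 32.7% of all 32851 windows of the same length, 13 (34.2%) held a CCAAT box (CCAAT or ATTGG) against 33.8%, 5 (13.2%) a TATA box against 12.4% and 1 (2.63%) an AP-1 motif (TGANTCA) against 6.75%. A match describes these letters only.

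MC38 tumours carried far more collagen RNA than B16 tumours, and a different mixture of types. Summed over all members, collagen came to 795 to 1462 FPKM in the 12 MC38 libraries and to 154 to 526 in the 12 B16 libraries. In MC38 the highest member was Col3a1, the single chain of type III, with a lowest, median and highest value of 159, 313 and 540 FPKM. It was followed by the type VI chains Col6a1 (77.1, 166 and 296) and Col6a3 (85.6, 99.8 and 144), the type I chain Col1a1 (22.8, 56.2 and 212) and the type V chain Col5a1 (43.3, 60.5 and 101). Fibrillar members made up a mean of 51.8% of collagen FPKM in MC38 and those of basement membranes 8.55%.

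In B16 the order was another. Col28a1, a collagen with von Willebrand factor type A domains that is known from Schwann cells of peripheral nerve, was the highest at 21.1, 57.03 and 65.2 FPKM (lowest, median and highest of 12). The basement membrane chain Col4a1 (18.5, 31.7 and 51.6) and its partner Col4a2 (13.4, 20.3 and 32.3) varied less between libraries than Col1a1 (1.99, 20.5 and 128) and Col3a1 (1.99, 19.2 and 103). Cdh19, an adhesion gene known from Schwann cells, was at 35.4 to 45.2 FPKM in 9 B16 libraries and at 14.7 to 19.5 in the 3 of B16 KO anti-PD-1, against 0.519 to 1.78 in MC38.

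**Figure D1:**
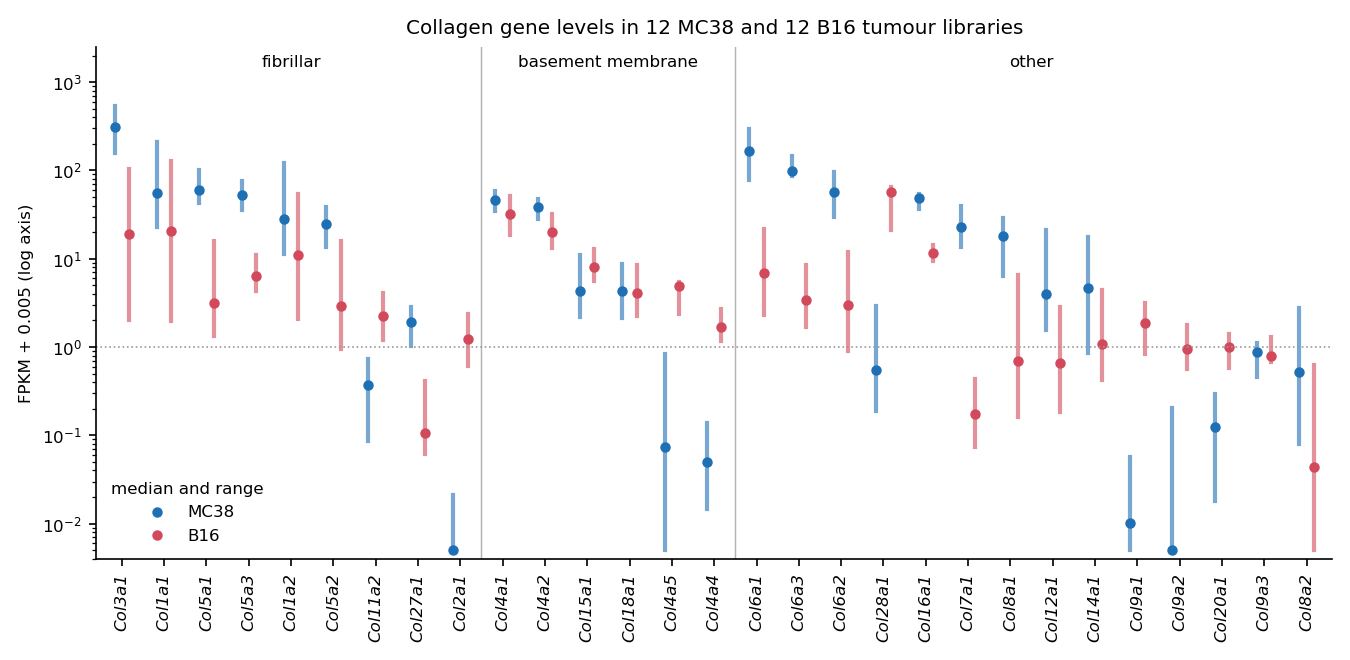
FPKM, with a small constant added, of the collagen genes tested in at least 1 line, in MC38 and B16 tumours (log axis). Each point is the median of the 12 libraries of a line, and each bar is their range. Col3a1 leads in MC38 with a median of 313 FPKM and Col28a1 leads in B16 with a median of 57.03.

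The lines were compared in 1 fit of all 24 libraries, averaged over the 4 groups of each. Line cannot be told apart from anything handled per line. Of 30 members tested, 18 were called higher in MC38 and 9 higher in B16, where 79.6% of all 15655 tested genes were called (43.5% higher and 36.2% lower in MC38). The sizes were large. Col6a3 was higher in MC38 by 4.49 ± 0.122 (limma adjusted p = 1.71e-17), Col7a1 by 4.39 ± 0.0581 (limma adjusted p = 1.96e-22), Col6a1 by 4.29 ± 0.185 (limma adjusted p = 2.70e-14) and Col3a1 by 4.10 ± 0.376 (limma adjusted p = 4.14e-09). Col7a1 makes the anchoring fibrils that tie epidermis to dermis, and it did not exceed 0.431 FPKM in any B16 library.

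Other chains were higher in B16. Col28a1 differed by -4.92 and Col4a5 by -2.23 (limma adjusted p = 8.68e-17 and 2.06e-16). The cartilage chains Col2a1, Col9a1, Col9a2 and Col11a2 were higher in B16 as well, with differences of -1.02 to -1.43. Their levels were low, and Col2a1, the chain of type II, reached 2.37 FPKM in B16 and 0.0162 in MC38. The 6 cartilage markers summed to 18.3 to 28.8 FPKM in MC38 and to 1.47 to 3.94 in B16, so their sum was lower where these chains were higher. Sox9 held most of the MC38 sum, and Acan, Cnmd and Matn1 were below 0.1 in most libraries. Only Col18a1, Col9a3 and Col13a1 of the 30 were not called, and the 27 calls held in every alternative run.

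Some genes that lie side by side were read at very different levels in B16. Col4a4 and Col4a3 sit head to head on chromosome 1, 82448423 to 82586849 and 82586921 to 82722059, and Col4a4 averaged 1.74 FPKM while Col4a3 did not exceed 0.0515. Col4a5 and Col4a6 sit head to head on the X chromosome, 141475385 to 141689234 and 141165403 to 141474076, and Col4a5 averaged 4.46 FPKM while Col4a6 did not exceed 0.0332. These pairs encode chains of the specialised type IV networks of kidney, lung and other epithelia. Col4a1 and Col4a2 overlap by their ends on opposite strands of chromosome 8, and the strand setting of the counting is not given in the sources used here, so reads in the overlap cannot be assigned to either.

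Chains that join in 1 protein were compared as ratios. The ratio of Col1a1 to Col1a2 FPKM, the chains of type I, was 1.72 to 2.502 in MC38 and 0.967 to 2.37 in B16. That of Col4a1 to Col4a2 was 1.05 to 1.32 in MC38 and 1.26 to 1.91 in B16. The ratio of type III to type I ranged more widely in MC38. There Col3a1 over Col1a1 was 7.32 to 19.3 in WT PBS, 4.39 to 6.27 in KO PBS, 2.35 to 9.66 in WT anti-PD-1 and 1.502 to 1.96 in KO anti-PD-1, with the last group below all others. In B16 the ratio was 0.596 to 1.61.

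The relation of each chain to Col1a1 was also followed across libraries. Among 45 relations of a tested member with Col1a1 on the log2 scale within a line of 12 libraries, Col1a2 followed Col1a1 in both lines, with Pearson's r of 0.988 in MC38 (Spearman's rho 0.965) and 0.997 in B16 (rho 0.979), each with a permutation p of 1e-05, the smallest that 100000 resamples give, and a Benjamini-Hochberg adjusted p of 4.09e-05 for r and 0.000112 for rho. The resamples shuffled all 12 libraries of a line regardless of group, so differences between groups enter these p-values. Without the 2 libraries farthest from the median Col1a1, r was 0.972 and 0.997. Col3a1 followed Col1a1 in B16, with r = 0.977 (two-sided permutation p = 1e-05, adjusted 4.09e-05) and rho = 0.951 (permutation p = 2e-05, adjusted 0.00018), and 0.972 without the 2 farthest libraries. In MC38 no such relation was detected, with r = -0.272 (permutation p = 0.393, adjusted 0.465) and rho = -0.301 (permutation p = 0.344, adjusted 0.431). After group means were removed r was 0.949 in B16 and 0.554 in MC38, and without the 2 farthest libraries the MC38 r was -0.534. Relations with r over 0.8 numbered 5 of 20 in MC38, namely Col1a2, Col12a1, Col18a1, Col8a2 and Col15a1, and 11 of 25 in B16. The share of all tested genes with r over 0.8 was not computed, so these counts have no background beside them.

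**Figure D2:**
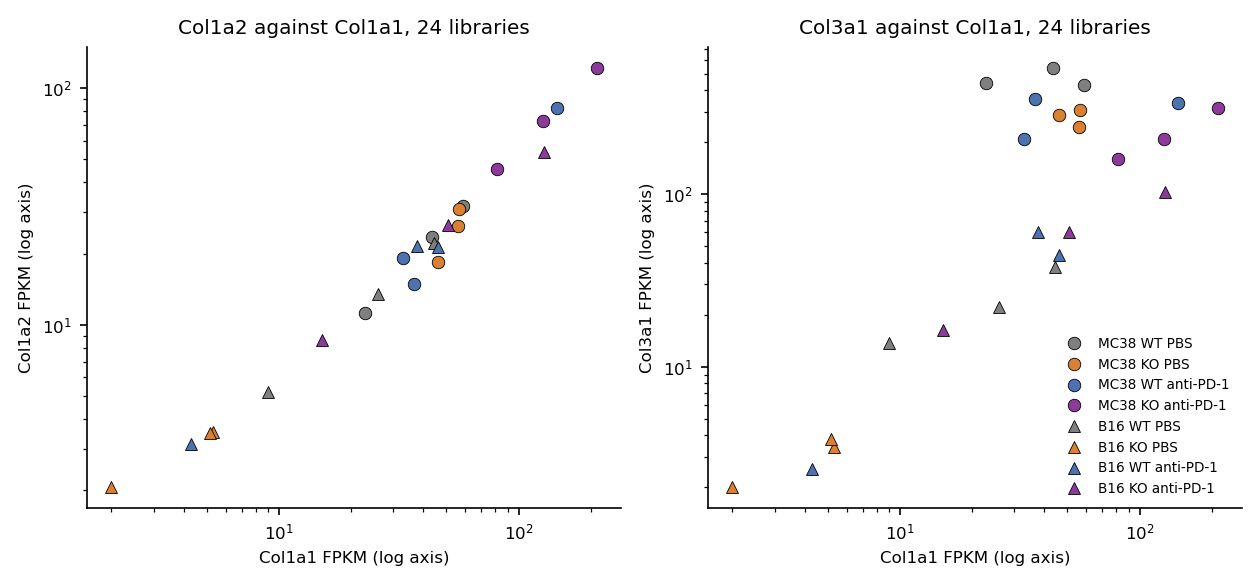
Col1a2 and Col3a1 against Col1a1 in FPKM (log axes), each point 1 of 24 libraries, coloured by group. Col1a2 lies along 1 line in both tumours (r = 0.988 and 0.997), while Col3a1 does so in B16 (r = 0.977) and not in MC38 (r = -0.272).

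In MC38 tumours under PBS, KO tumours had less Col6a1, Col6a2 and Col8a1 and more Col6a3, Col7a1 and Col5a1 than WT tumours. Of 21 members tested, 3 were called higher and 3 lower, where 23.4% of all 14209 tested genes were called. The median difference was 0.02 over the members and 0.01 over all tested genes. By type, 1 of 7 fibrillar members rose, none of 4 basement membrane members was called and 2 of the other 10 rose while 3 fell.

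Type VI collagen showed unequal changes of its chains. Col6a1 (ENSMUSG00000001119, chromosome 10, 76708792 to 76726168, minus strand) stood at 252, 296 and 210 FPKM in WT PBS and at 109, 142 and 165 in KO PBS. The groups did not overlap, and the difference was -0.87 ± 0.188 (limma adjusted p = 0.00834). Col6a2, its neighbour on the same strand (76595762 to 76623630), stood at 82.1, 95.8 and 69.2 in WT PBS and at 39.5, 51.8 and 62.2 in KO PBS, again without overlap. It fell by 0.69 ± 0.212 (limma adjusted p = 0.038), a call lost without WT PBS replicate 1 or 2, KO PBS replicate 1 or 2 or KO anti-PD-1 replicate 1 (limma adjusted p from 0.0503 to 0.129).

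Col6a3 (chromosome 1, 90765923 to 90843971), the longest chain of the same microfibril, went the other way under PBS. Its values were 88.7, 88.2 and 85.6 FPKM in WT PBS and 117, 120 and 144 in KO PBS. Every KO library was above every WT library, with a rise of 0.52 ± 0.0951 (limma adjusted p = 0.00356). The ratio of Col6a3 to Col6a1 was 0.298 to 0.407 in WT PBS and 0.842 to 1.07 in KO PBS. The ratio of Col6a1 to Col6a2 moved less, from 3.04 to 3.09 in WT PBS against 2.66 to 2.76 in KO PBS.

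Under anti-PD-1 the Col6a1 and Col6a2 differences recurred in another set of MC38 libraries. The fit takes its spread from all 12 MC38 libraries, so the p-values under PBS and under anti-PD-1 are not independent. Col6a1 was at 220, 167 and 232 FPKM in WT and at 87.5, 108 and 77.1 in KO, a fall of 1.17 ± 0.188 (limma adjusted p = 0.00362). The lowest WT library was well above the highest KO library. Col6a2 was at 69.1, 48.4 and 78.1 in WT and 33.8, 42.7 and 29.5 in KO and fell by 0.85 ± 0.212 (limma adjusted p = 0.0256), a call lost without WT replicate 1 or 3 or KO replicate 1 or 3 (limma adjusted p from 0.0706 to 0.0961). Col6a3 was at 117, 109 and 96.2 in WT and 104, 90.3 and 92.8 in KO, groups that overlapped, with a difference of -0.16 (limma adjusted p = 0.295).

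Col6a3 was the only member called in the MC38 test of whether the KO difference depends on treatment, 1 of 21 where 2.44% of all tested genes were called (1.81% higher). Its KO difference was lower under anti-PD-1 than under PBS by -0.69 ± 0.135 (limma adjusted p = 0.0332). This call was lost without any 1 of 9 libraries (limma adjusted p from 0.0518 to 0.0863) and was kept only without replicate 1 of KO PBS, 3 of WT anti-PD-1 or 1 of KO anti-PD-1. It was also lost in 1 fit of all 24 libraries (limma adjusted p = 0.346).

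Col8a1 (ENSMUSG00000068196, chromosome 16, 57624258 to 57754737), whose promoter with 4 GC boxes is printed above, had the largest fall under PBS. It encodes a short-chain network collagen known from vessel walls and the cornea. Its values were 17.4, 20.2 and 19.7 FPKM in WT PBS and 7.75, 6.52 and 6.41 in KO PBS. The KO values lay far below the WT values, and the difference was -1.35 ± 0.156 (limma adjusted p = 0.00035). In the anti-PD-1 groups it was at 28.7, 21.04 and 23.3 in WT and at 11.9, 18.97 and 13.95 in KO, a fall of 0.68 ± 0.156 (limma adjusted p = 0.0188). The groups did not overlap, but the call was lost without WT replicate 1 or KO replicate 1 or 3 (limma adjusted p from 0.0613 to 0.0686).

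Col7a1 (ENSMUSG00000025650, chromosome 9, 108953586 to 108984875, overlapping the microRNA gene Mir711) was the member called higher in KO under both treatments. It was at 19.6, 21.3 and 22.3 FPKM in WT PBS and at 29.3, 39.4 and 38.0 in KO PBS, a rise of 0.72 ± 0.136 (limma adjusted p = 0.00441). In the anti-PD-1 groups it was at 16.3, 18.97 and 13.7 in WT and at 29.7, 23.6 and 27.2 in KO, a rise of 0.69 ± 0.136 (limma adjusted p = 0.00935). The 6 KO libraries were above the 6 WT libraries, and both calls held in every alternative run. Some keratinocyte markers were also higher in KO: the sum of 8 was 4.82 to 5.85 FPKM in WT PBS, 17.7 to 30.2 in KO PBS, 7.22 to 27.7 in WT anti-PD-1 and 26.8 to 41.5 in KO anti-PD-1. WT anti-PD-1 replicate 1 had the 27.7, within the KO range, while its Col7a1 was at 16.3. Krt14, a keratin of basal keratinocytes, was at 3.19 to 4.19, 15.5 to 27.8, 5.65 to 12.5 and 24.9 to 37.0 FPKM in the same order and was called higher in KO under both treatments. Krt10, the other marker that passed the filter, was not called, with differences of 0.26 under PBS and -0.80 under anti-PD-1. Krt5, the usual partner of Krt14, did not exceed 1.98 and Dsg3 was below 0.1 throughout. The part of these cells in the Col7a1 difference was not tested.

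The type V chains parted. Col5a1 was at 65.4, 60.3 and 49.3 FPKM in WT PBS and 67.4, 83.7 and 101 in KO PBS, a rise of 0.51 ± 0.162 (limma adjusted p = 0.0428) that stayed called when replicate 1 of WT PBS, of KO PBS or of WT anti-PD-1, or replicate 2 of WT anti-PD-1, was left out, and was lost without any 1 of the other 8 libraries (limma adjusted p from 0.0502 to 0.146). In 1 fit of all 24 libraries, 4 of the 6 calls under PBS were lost, those of Col6a1 (limma adjusted p = 0.112), Col6a2 (0.183), Col6a3 (0.146) and Col5a1 (0.472). Col5a3 was at 51.7, 70.6 and 47.7 in WT PBS and 40.9, 52.8 and 53.0 in KO PBS and was not called there. Under anti-PD-1 it was at 75.9, 65.6 and 54.5 in WT and 37.5, 38.3 and 35.7 in KO, without overlap, and fell by 0.79 ± 0.158 (limma adjusted p = 0.0102). Without the muscle-rich libraries its limma adjusted p was 0.0563.

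**Figure D3:**
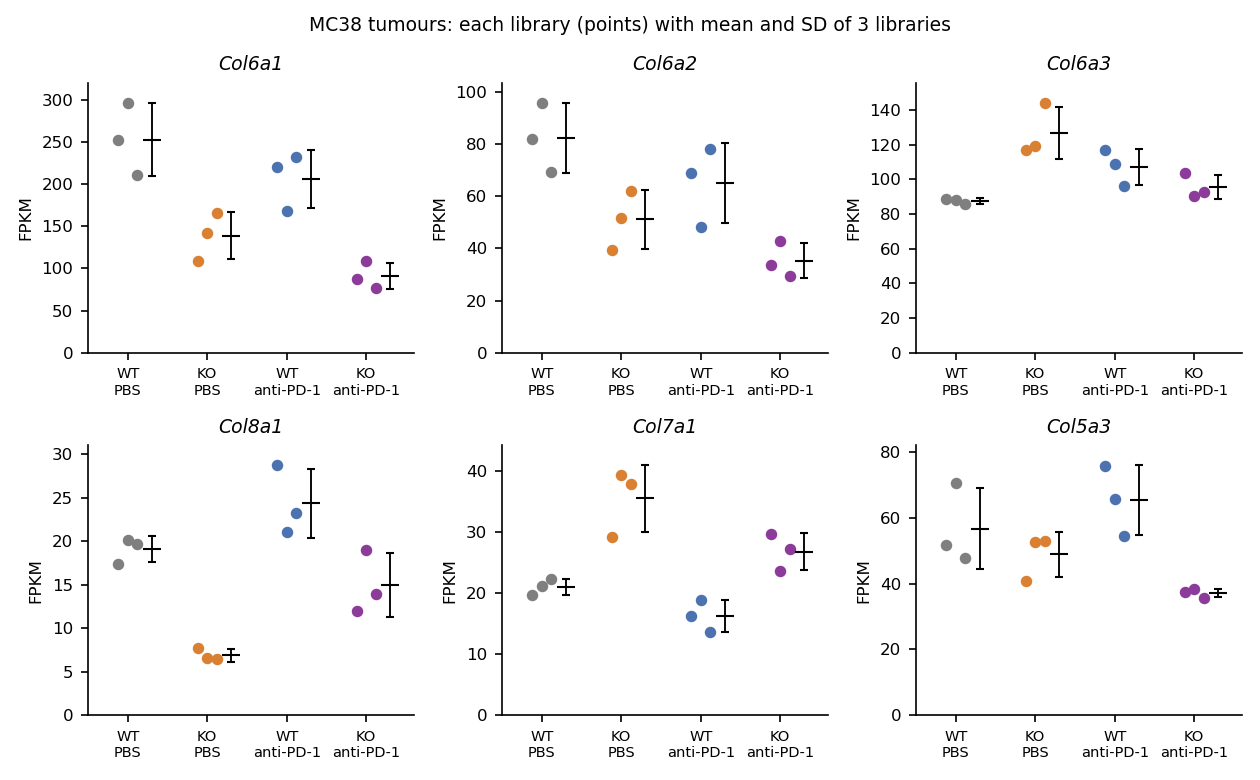
FPKM of 6 collagen genes in MC38 tumours by group, each point 1 library, with the mean and SD of 3 libraries beside them. Col6a1, Col6a2 and Col8a1 are lower in KO than in WT under both treatments, Col7a1 is higher under both, and Col6a3 is higher in KO under PBS, while its anti-PD-1 groups overlap.

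Under anti-PD-1, 1 of 21 members was called higher in MC38 KO tumours and 5 lower, where 12.1% of all tested genes were called (5.01% higher and 7.05% lower). Besides those above, Col16a1, a fibril-associated collagen, fell by 0.28 ± 0.0712 (limma adjusted p = 0.027), from 42.6, 43.9 and 48.6 FPKM in WT to 37.0, 36.1 and 37.2 in KO. The groups did not overlap, but the call was lost without WT replicate 3 or any 1 of the KO libraries (limma adjusted p from 0.0664 to 0.0894). With KO replicate 1 or KO replicate 3 left out, 3 calls were made. The type I chains were not called, with Col1a1 at 144, 33.0 and 36.7 in WT and 81.4, 212 and 126 in KO, and a difference of 1.19 (limma adjusted p = 0.173). The anti-PD-1 groups overlapped, since WT replicate 1 was above 2 of the KO libraries.

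Averaged over both treatments, 1 member was called higher and 5 lower in MC38 KO tumours, where 27.4% of all tested genes were called (13.4% higher and 14% lower). Col8a1 fell by 1.01 ± 0.11 (limma adjusted p = 0.000118), Col6a1 by 1.02 ± 0.133 (0.000353), Col6a2 by 0.77 ± 0.15 (0.00355) and Col5a3 by 0.49 ± 0.112 (0.00827), while Col7a1 rose by 0.70 ± 0.096 (limma adjusted p = 0.00046). After quantile normalization the split was 3 higher and 4 lower. Col3a1 was called only here, with a fall of 0.58 ± 0.176 (limma adjusted p = 0.0326). It stood at 428, 540 and 440 FPKM in WT PBS, 245, 289 and 308 in KO PBS, 339, 209 and 355 in WT anti-PD-1 and 159, 318 and 208 in KO anti-PD-1. The PBS groups did not overlap and the anti-PD-1 groups did, and the call was lost without replicate 2 of WT PBS, 1 or 2 of KO PBS, 1 or 3 of WT anti-PD-1 or 1 or 3 of KO anti-PD-1 (limma adjusted p from 0.056 to 0.0761).

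Fibroblast markers differed between the same MC38 groups. Their sum over 9 genes was 395 to 468 FPKM in WT PBS, 172 to 204 in KO PBS, 287 to 383 in WT anti-PD-1 and 179 to 371 in KO anti-PD-1. Dcn, which encodes the fibril-binding proteoglycan decorin, fell in KO by 2.09 under PBS (limma adjusted p = 0.000822) and by 1.54 under anti-PD-1 (limma adjusted p = 0.00694). Dcn was at 210 to 266 FPKM in WT PBS and at 47.6 to 59.1 in KO PBS, and so made up a large part of the sum. Under PBS 4 of the 9 markers were called lower and none higher, with a median difference of -0.75. Of all tested genes 11.6% were called lower and 11.9% higher. Under anti-PD-1 Dcn was the 1 marker called, where 12.1% of all tested genes were called. There 5 of the 9 differences were above 0, with a median of 0.04. The part of fibroblasts in the collagen differences was not tested.

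Few collagens were called for treatment in MC38. In WT tumours no member was called for anti-PD-1 against PBS, where 0% of all tested genes were called by limma, and 4 members and 1953 genes had an unadjusted p under 0.05. In KO tumours, 1 of 21 was called higher and 2 lower, where 8.99% of all tested genes were called (6.12% higher). This comparison shares the KO PBS libraries with the genotype comparison above. Immune markers moved in both: the 6 T cell markers summed to 19.1 to 31.0 FPKM in WT PBS, 2.58 to 4.47 in KO PBS, 23.5 to 27.4 in WT anti-PD-1 and 21.8 to 35.3 in KO anti-PD-1. All 6 were called lower in KO under PBS, where 11.6% of all tested genes were called lower. With anti-PD-1 in KO all 6 were called higher, as were 4 of 6 macrophage markers. Their part in the collagen differences was not tested. Col8a1 rose by 1.00 ± 0.156 (limma adjusted p = 0.00368), with the values of both KO groups given above. Col16a1 went from 47.9, 53.9 and 54.6 FPKM to 37.0, 36.1 and 37.2, a fall of 0.49 ± 0.0712 (limma adjusted p = 0.00274) without overlap. Col6a3 fell by 0.40 ± 0.0951 (limma adjusted p = 0.0248), which was lost without KO PBS replicate 3 or KO anti-PD-1 replicate 2 or 3 (limma adjusted p from 0.0789 to 0.102). Leaving out KO PBS replicate 1 gave 6 calls, leaving out WT anti-PD-1 replicate 1 gave 7 and leaving out the muscle-rich libraries gave 6. In 1 fit of all 24 libraries the Col8a1 and Col6a3 calls were lost (limma adjusted p = 0.153 and 0.397).

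**Figure D4:**
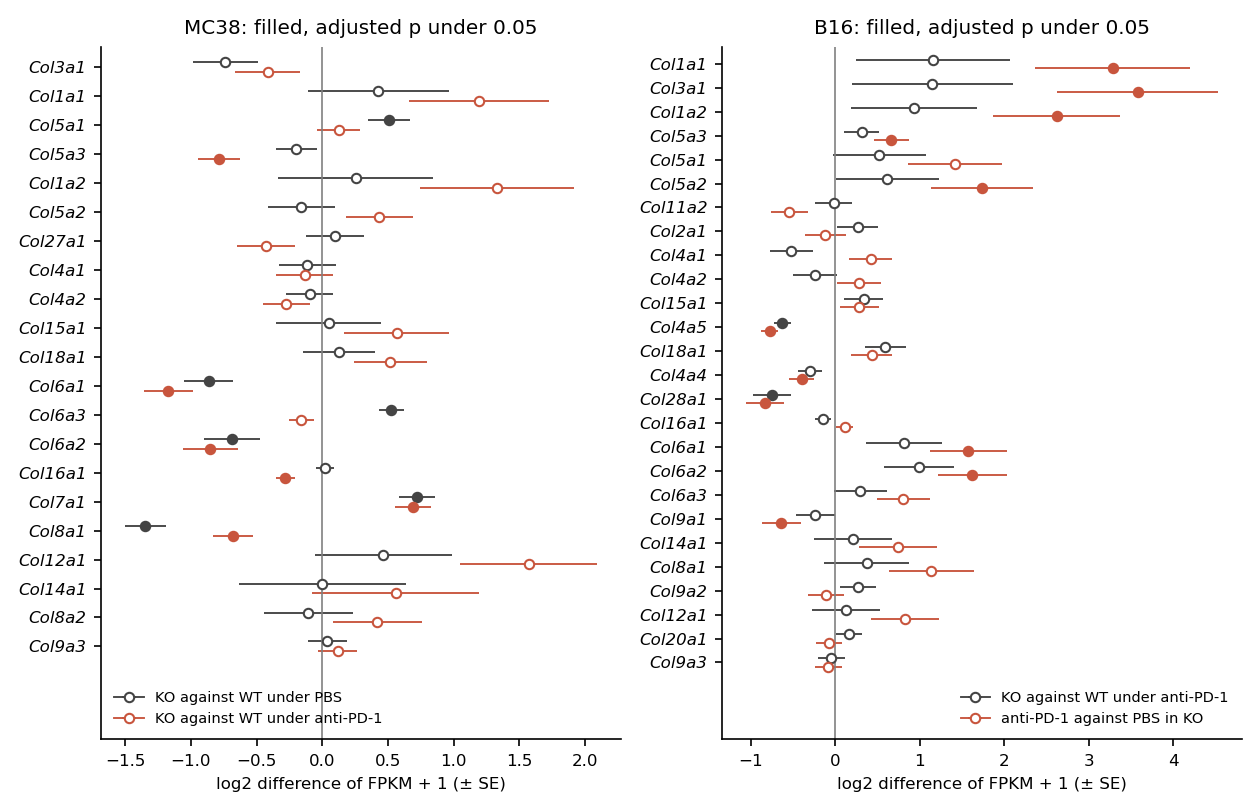
Log2 differences of FPKM + 1 with their standard errors for the tested collagen genes, in 2 MC38 and 2 B16 comparisons; filled points have a limma adjusted p under 0.05. In MC38 the filled points lie on both sides of 0, and in B16 KO tumours under anti-PD-1 against PBS 7 lie above and 4 below.

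Genes that handle collagen were described from 6 lists. In MC38 under PBS, 5 of 17 measured folding and modification genes were called higher in KO and 2 lower, 5 of 10 export and propeptide cleavage genes higher and 2 lower, and 3 of 13 crosslinking and fibril partner genes higher and 1 lower. Of receptors 1 of 7 was higher and 2 lower, of degradation genes 1 of 8 was higher and 2 lower, and of basement membrane partners 1 of 10 was higher. Of all tested genes 11.9% were called higher and 11.6% lower. P3h2, a prolyl 3-hydroxylase that acts on type IV collagen, was at 8.11, 11.2 and 10.6 FPKM in WT PBS and at 4.73, 3.52 and 4.69 in KO PBS, a fall of 1.04 (limma adjusted p = 0.000374), and under anti-PD-1 the fall was 1.44 (limma adjusted p = 0.000126). Adamts14, a protease that trims the amino end of procollagen, was at 18.2, 20.1 and 19.5 in WT PBS and at 8.97, 9.99 and 10.2 in KO PBS, a fall of 0.92 (limma adjusted p = 0.00011). Pcolce2, an enhancer of the protease at the other end, rose by 0.95 (limma adjusted p = 0.00127). Tnc, the matrix glycoprotein tenascin C, was at 11.5, 5.72 and 6.83 in WT PBS and at 18.1, 25 and 29.96 in KO PBS, and rose by 1.52 (limma adjusted p = 0.00512).

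Under anti-PD-1 fewer of these genes were called in MC38 KO tumours: 0 higher and 3 lower for folding, 3 and 1 for export, 2 and 1 for crosslinking, 2 and 2 for basement membrane partners, 0 and 1 for receptors and 1 and 2 for degradation. The share of all tested genes called was also smaller, 12.1% against 23.4%. Whether the counts differ between treatments was not tested. Mmp13, a collagenase, rose by 1.43 (limma adjusted p = 0.0282), and Mmp9, a gelatinase, fell by 1.12 (limma adjusted p = 0.0145). Timp2, an inhibitor of these proteases, fell by 0.69 under PBS (limma adjusted p = 0.000432) and by 0.53 under anti-PD-1 (limma adjusted p = 0.00307). For anti-PD-1 against PBS in KO tumours, 7 of 17 folding genes were called lower and none higher, where 2.86% of all tested genes were called lower and 6.12% higher, among them P4ha1, a subunit of the prolyl 4-hydroxylase that stabilises the helix, which fell by 0.52 (limma adjusted p = 0.0146). Fn1, the fibronectin gene, fell by 0.82 in the same comparison (limma adjusted p = 0.00344), from 352, 362 and 413 FPKM to 225, 185 and 229.

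In B16 tumours under PBS no collagen was called between KO and WT. The members tested numbered 26, and by limma 0.47% of all 13627 tested genes were called (0.191% lower). Col3a1 was at 22.2, 37.7 and 13.7 FPKM in WT and at 3.44, 1.99 and 3.82 in KO, a difference of -2.56 ± 0.954 (limma adjusted p = 0.286). Col1a1 was at 25.8, 44.5 and 9.04 in WT and at 5.30, 1.99 and 5.18 in KO, a difference of -2.24 ± 0.914 (limma adjusted p = 0.326). The groups did not overlap for either gene, but the WT libraries differed among themselves several-fold. The WT anti-PD-1 libraries spread further, with Col1a1 at 4.30, 37.8 and 46.0, so that 1 of them lay among the KO PBS values.

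Anti-PD-1 against PBS in B16 WT tumours gave no call. By limma 0% of all tested genes were called, and no member and 281 genes had an unadjusted p under 0.05. In B16 KO tumours the same comparison gave calls for 11 of 26 members, 7 higher and 4 lower, where 43.9% of all tested genes were called (18.9% higher and 25% lower), so the share of members called was near that of all genes. By class, the counts were as follows. Of 8 fibrillar members 5 were called higher and none lower, with a median difference of 1.58. Of 6 basement membrane members 2 were called lower, and of the other 12 members 2 were higher and 2 lower. The median was 0.43 over the 26 members and -0.03 over all tested genes. After quantile normalization the split was 9 higher and 2 lower. On protein-coding genes rescaled to equal sums it was 6 higher and 5 lower, and the median of all genes was -0.19.

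The type I and III chains had the largest differences. Col3a1 went from 3.44, 1.99 and 3.82 FPKM in KO PBS to 103, 60.4 and 16.2 in KO anti-PD-1, a rise of 3.58 ± 0.954 (limma adjusted p = 0.0116). Col1a1 went from 5.30, 1.99 and 5.18 to 128, 50.6 and 15.2, a rise of 3.28 ± 0.914 (limma adjusted p = 0.0144). The KO anti-PD-1 libraries were above the KO PBS libraries for both genes, and among the former replicate 1 was the highest and replicate 3 the lowest. Col1a2 rose by 2.62 ± 0.748 (limma adjusted p = 0.0162), from 3.51, 2.06 and 3.51 to 53.8, 26.4 and 8.65. Col5a2, a chain of type V, rose by 1.74 ± 0.608 (limma adjusted p = 0.0383) and Col5a3 by 0.67 ± 0.206 (limma adjusted p = 0.0231).

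The type VI chains followed with smaller sizes. Col6a1 went from 5.65, 2.31 and 4.25 FPKM to 21.7, 14.9 and 7.50, a rise of 1.58 ± 0.452 (limma adjusted p = 0.0164). Col6a2 went from 2.10, 0.903 and 1.85 to 11.9, 7.29 and 3.61, a rise of 1.62 ± 0.41 (limma adjusted p = 0.00896). The order of the KO anti-PD-1 libraries was that of the muscle markers, whose sums were 1942, 175 and 10.2 FPKM in replicates 1, 2 and 3.

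Other cell types moved with these rises. In KO anti-PD-1 against KO PBS, fibroblast markers summed to 46.3 to 150 FPKM against 27.2 to 30.7, endothelial markers to 33.6 to 69.9 against 16.2 to 27.5 and macrophage markers to 83.3 to 199 against 25.4 to 54.5. Of the markers tested, 5 of 8 fibroblast, 5 of 8 endothelial, 4 of 6 macrophage, 3 of 6 pericyte and smooth muscle, 4 of 5 adipocyte, 3 of 3 T cell and 3 of 3 skeletal muscle genes were called higher. Their part in the collagen differences was not tested. Without the muscle-rich libraries, which leaves 1 KO anti-PD-1 library that is assumed to vary like the other groups, 1 of the 11 calls was left, that of Col4a5. Col3a1 then differed by 2.10 (limma adjusted p = 0.284) and Col1a1 by 1.73 (limma adjusted p = 0.33).

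Single libraries also decided calls. Col1a1, Col1a2 and Col6a1 lost theirs when KO PBS replicate 2 or KO anti-PD-1 replicate 1 was left out (limma adjusted p from 0.0508 to 0.0674), and Col5a3 without KO PBS replicate 2 or 3 or KO anti-PD-1 replicate 1 (0.0606 to 0.0918). Col5a2 lost its call without WT PBS replicate 1, any 1 of the KO PBS libraries or KO anti-PD-1 replicate 1 or 2 (limma adjusted p from 0.0511 to 0.151). With 1 library left out, 5 members were called (KO PBS replicate 2), 7 (KO PBS replicate 3) or 4 (KO anti-PD-1 replicate 1). Col3a1, Col6a2, Col28a1 and Col4a5 stayed called with any 1 library left out.

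The leading B16 collagen went down where the fibrillar chains went up. Col28a1 (ENSMUSG00000068794, chromosome 6, 7997808 to 8192617) was at 52.5, 63.5 and 65.2 FPKM in WT PBS, 58.3, 63.6 and 59.1 in KO PBS, 51.9, 63.7 and 55.8 in WT anti-PD-1 and 21.1, 36.7 and 48.3 in KO anti-PD-1. All 3 KO anti-PD-1 libraries were below the other 9, and the lowest was the one with the most muscle RNA. It fell by 0.83 ± 0.227 against KO PBS (limma adjusted p = 0.0134) and by 0.75 ± 0.227 against WT anti-PD-1 (limma adjusted p = 0.0229). The second call was lost without WT anti-PD-1 replicate 2 or 3 (limma adjusted p = 0.0686 and 0.0551). Without the muscle-rich libraries the differences were -0.31 and -0.23 (limma adjusted p = 0.172 and 0.312).

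Col4a5 (ENSMUSG00000031274) kept its calls. It was at 5.11, 5.03 and 5.36 FPKM in WT PBS, 5.50, 5.50 and 4.89 in KO PBS, 4.11, 5.24 and 4.73 in WT anti-PD-1 and 2.35, 2.86 and 2.85 in KO anti-PD-1. The last group lay below the other 9 libraries. The fall was 0.77 ± 0.0984 against KO PBS (limma adjusted p = 0.000211) and 0.63 ± 0.0984 against WT anti-PD-1 (limma adjusted p = 0.000693), and both held in every alternative run. These comparisons share the KO anti-PD-1 libraries. Col4a4 fell by 0.40 ± 0.144 against KO PBS (limma adjusted p = 0.0431), from 1.92, 1.59 and 2.70 to 1.16, 1.40 and 1.36, and Col9a1 by 0.64 ± 0.229 (limma adjusted p = 0.0429), from 2.01, 2.80 and 3.11 to 0.83, 1.98 and 1.30. The Col4a4 call was kept only without WT PBS replicate 3 or KO PBS replicate 2 and lost without any 1 of the other 10 libraries (limma adjusted p from 0.0505 to 0.159), and that of Col9a1 was lost without replicate 1 of WT PBS, 2 or 3 of KO PBS, 3 of WT anti-PD-1 or 1 or 3 of KO anti-PD-1 (0.0563 to 0.157).

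Between KO and WT under anti-PD-1 in B16, Col28a1 and Col4a5 were the 2 members called of 26, both lower, where 40.8% of all tested genes were called (25.9% lower). The counts varied with scaling: 2 higher and 2 lower after quantile normalization, and 0 higher and 5 lower on protein-coding genes rescaled to equal sums, which moved the median of all genes from -0.05 to -0.23. Leaving out WT anti-PD-1 replicate 3 gave 1 call, and leaving out replicate 1 or 3 of KO anti-PD-1 gave 4. Col4a5 was also the 1 member called in the test of whether the KO difference depends on treatment, at -0.65 ± 0.139 (limma adjusted p = 0.00831), where 23.5% of all tested genes were called (8.9% higher and 14.6% lower). Without the muscle-rich libraries its limma adjusted p was 0.0594. There were 3 such calls when WT anti-PD-1 replicate 2 was left out and 6 when KO anti-PD-1 replicate 3 was.

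**Figure D5:**
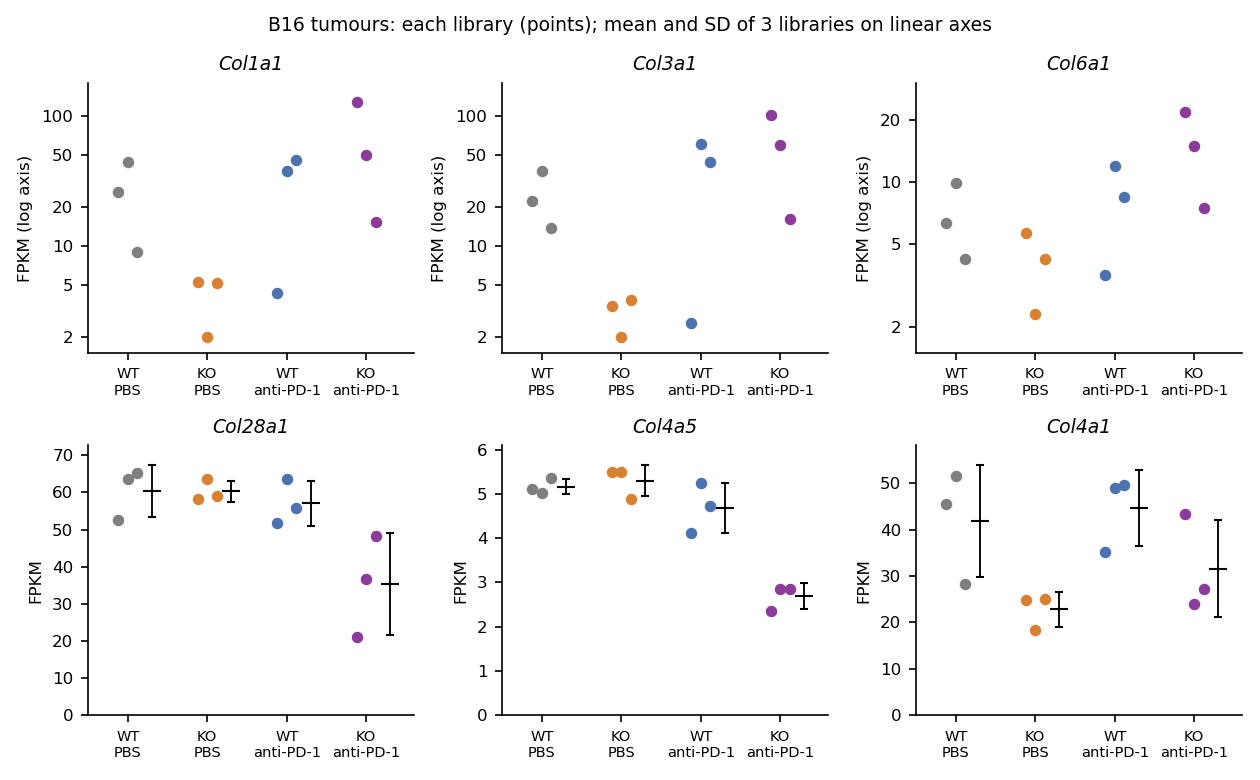
FPKM of 6 collagen genes in B16 tumours by group, each point 1 library; the upper axes are logarithmic and the lower ones linear, with the mean and SD of 3 libraries. Col1a1, Col3a1 and Col6a1 are higher in KO anti-PD-1 than in KO PBS, while Col28a1 and Col4a5 in KO anti-PD-1 lie below the other 9 libraries.

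Averaged over both treatments, 3 members were called lower in B16 KO tumours and none higher, where 26.5% of all tested genes were called (7.54% higher and 19% lower). Col4a1 was at 45.6, 51.6 and 28.3 FPKM in WT PBS, 24.9, 18.5 and 25.04 in KO PBS, 35.2, 48.98 and 49.7 in WT anti-PD-1 and 43.5, 23.9 and 27.3 in KO anti-PD-1. The groups were apart under PBS and overlapped under anti-PD-1. It fell by 0.67 ± 0.182 (limma adjusted p = 0.0208), a call lost without replicate 2 of WT PBS, 2 of KO PBS or 3 of WT anti-PD-1 (limma adjusted p from 0.0505 to 0.0526). Col4a5 fell by 0.30 ± 0.0696 (limma adjusted p = 0.0102, and 0.0645 without the muscle-rich libraries). Col16a1 fell by 0.22 ± 0.0696 (limma adjusted p = 0.0376), a call kept only without replicate 1 of KO PBS, 3 of WT anti-PD-1 or 3 of KO anti-PD-1 and lost without any 1 of the other 9 libraries (0.0542 to 0.0853). The number of calls was 1 without WT PBS replicate 2 and 1 without KO PBS replicate 2.

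Of the collagen handling lists, 1 gene was called between B16 KO and WT under PBS, where 0.47% of all tested genes were called. It was P3h2, which rose by 0.63 (limma adjusted p = 0.0431) from 7.73, 9.01 and 7.03 FPKM to 12.1, 13.6 and 12.6. In B16 KO tumours under anti-PD-1 against PBS, 7 of 11 crosslinking and fibril partner genes were called higher and none lower, 4 of 15 folding genes higher and 2 lower, 4 of 8 export genes higher and 3 lower, 1 of 5 receptors higher and 3 lower, 2 of 7 degradation genes higher and 1 lower, and 1 of 10 basement membrane partners higher and 3 lower. Of all tested genes 18.9% were called higher and 25% lower. Lox, the lysyl oxidase that crosslinks fibrils, went from 0.265, 0.0858 and 0.172 FPKM to 23.1, 7.55 and 1.71 and rose by 2.81 (limma adjusted p = 0.0175). Bgn, the proteoglycan biglycan, rose by 2.28 (limma adjusted p = 0.0114) and Dcn by 2.63 (limma adjusted p = 0.012). Dcn and Lum stand in both this list and the fibroblast markers.

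Plod2, Mia3 and Ddr2 fell in that comparison. Plod2, which hydroxylates the lysines used in crosslinks, went from 101, 95.6 and 115 FPKM to 41.9, 53.6 and 55.6 and fell by 1.04 (limma adjusted p = 0.000499). Mia3, a carrier that loads procollagen for export, fell by 0.92 (limma adjusted p = 0.000213), from 21.9, 24.8 and 21.5 to 9.85, 12.5 and 12.5. Ddr2, a receptor tyrosine kinase for fibrillar collagen, fell by 0.71 (limma adjusted p = 0.00117). Timp1, a protease inhibitor, rose by 2.12 (limma adjusted p = 0.0102) from 8.57, 6.65 and 9.58 to 88.7, 39.5 and 16.6. In replicates 1 to 3 of KO anti-PD-1 the Timp1 and Lox values stood in the same order as those of Col1a1.

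The averaged KO difference was then compared between the lines. Of 30 members, 2 were called with a higher value in MC38 than in B16 and 3 with a lower one, where 31.3% of all tested genes were called. Col7a1 differed by 0.64 ± 0.116 (limma adjusted p = 0.000384) and Col4a5 by 0.43 ± 0.142 (limma adjusted p = 0.0262). Both rest on 1 line, since Col7a1 was at or below 0.431 FPKM in B16 and Col4a5 at or below 0.839 in MC38. Col6a1 differed by -1.12 ± 0.371 (limma adjusted p = 0.0274), Col6a2 by -0.95 ± 0.348 (limma adjusted p = 0.0453) and Col5a3 by -0.53 ± 0.193 (limma adjusted p = 0.0415). The Col7a1 call held without each library in turn and without the muscle-rich libraries, and was lost with a pseudocount of 0.1 (limma adjusted p = 0.0687). The Col4a5 call was lost with that pseudocount (0.80, limma adjusted p = 0.201), with no filter (0.0566), after quantile normalization (0.0526) and without the muscle-rich libraries (0.26, limma adjusted p = 0.158). The Col6a1 call was lost without MC38 KO PBS replicate 1, B16 WT PBS replicate 3, B16 KO PBS replicate 1 or B16 KO anti-PD-1 replicate 1 (limma adjusted p from 0.0503 to 0.0532). The Col5a3 call was lost without any 1 of 13 libraries (limma adjusted p from 0.0508 to 0.0804), in MC38 replicate 2 of WT PBS, 1 of KO PBS, 1 or 2 of WT anti-PD-1 and each of KO anti-PD-1, and in B16 replicates 1 or 3 of WT PBS, 1 or 2 of KO PBS, 1 of WT anti-PD-1 and 1 of KO anti-PD-1. The Col6a2 call was lost without any 1 of 16 libraries (limma adjusted p from 0.0529 to 0.0854), all but replicate 3 of both MC38 PBS groups, replicate 2 of both MC38 anti-PD-1 groups, replicate 2 of B16 WT PBS, B16 KO PBS and B16 WT anti-PD-1, and replicate 3 of B16 KO anti-PD-1. The number of calls was 3 without MC38 WT PBS replicate 2, MC38 KO anti-PD-1 replicate 3 or B16 WT PBS replicate 1 or 3, and 2 without MC38 KO PBS replicate 1 or B16 KO PBS replicate 1. The split was 1 higher and 4 lower after quantile normalization and 5 higher and 1 lower on protein-coding genes rescaled to equal sums, which moved the median of all genes from 0.05 to 0.16.

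The remaining members were low or not called. In MC38, 21 members passed the filter, in B16 26, and 18 did so in both. Those tested in MC38 alone were Col27a1, Col7a1 and Col8a2, and those in B16 alone Col11a2, Col20a1, Col28a1, Col2a1, Col4a4, Col4a5, Col9a1 and Col9a2. In MC38, Col12a1, a collagen on the surface of fibrils, was at 12.9, 2.57 and 2.07 FPKM in WT anti-PD-1 and at 11.8, 21.4 and 12.95 in KO anti-PD-1, a difference of 1.57 that was not called (limma adjusted p = 0.0747). The 15 members under the filter in both lines were Col10a1, Col11a1, Col13a1, Col17a1, Col19a1, Col22a1, Col23a1, Col24a1, Col25a1, Col26a1, Col4a3, Col4a6, Col6a4, Col6a5 and Col6a6. None of them exceeded 1.73 FPKM in any library, the value of Col13a1, a transmembrane collagen, in 1 B16 library.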

How the data were processed

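Total RNA of tumour tissue was extracted with Trizol and sequenced after standard Illumina library preparation, per the labels' protocols. The deposited files hold 1 column per library, taken as FPKM from the values: they are not whole numbers and their sums per library are unequal. STAR 2.5, Cuffnorm, DESeq, FastQC and the genome mm10 are named, per the submitters' processing notes, without saying what each did. The authors' scaling across libraries, annotation and strand setting are not given in the sources used here, and no counts were used. Groups came from the labels' condition field. Symbols and positions came from the GENCODE annotation of mm10, which held 55154 of the gene IDs and lacked 181.

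The log2(FPKM + 1) values were fitted with limma 3.58.1 (R 4.3.3), using 1 mean per group, a mean-variance trend and Benjamini-Hochberg adjustment over all genes that reached 1 FPKM in 3 or more libraries. Each line was fitted on its 12 libraries, with 6 comparisons, and the lines were compared in a fit of all 24. The steps were tested on simulated data. Values per library are given for the 5 highest members per line, up to 4 called members per direction and comparison, the chains of 1 protein, and up to 4 called genes per pathway list. The pathway genes named are those of this rule with the values a sentence needs, and neighbouring chains and Col12a1, Col13a1 and single markers were chosen once values were known. The members, 6 pathway lists and 13 marker lists were chosen with earlier results of these data known. Alternatives were a pseudocount of 0.1, no filter, quantile normalization, protein-coding genes alone, no trend, all 24 libraries in 1 fit, only the 6 libraries compared, leaving out each library and, added after the data were seen, leaving out the muscle-rich libraries. One marker list is not reported here as a sum.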

Additional observations from a re-analysis of the deposited data

Results flagged for a closer look

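In 7 cases a KO difference of a collagen gene was itself different between treatments or between lines by the limma test of that difference. Between treatments these were Col6a3 in MC38, with a log2 value of -0.69, and Col4a5 in B16, with -0.65. Between lines, MC38 minus B16, they were Col6a1 at -1.12, Col5a3 at -0.53, Col6a2 at -0.95, Col7a1 at 0.64 and Col4a5 at 0.43. For Col7a1 and Col4a5 the gene was under the expression filter in the line with the smaller change.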

How the results depend on the processing

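No paired analysis was possible because the titles carry sample codes rather than replicate numbers, so no numbers pair libraries across groups. No called gene difference changed direction under any alternative. The direction of differences that were not called was compared only where an alternative called them. The gene results cover called members and the 5 highest of either line. Of them 3191 kept their side of the threshold, 46 passed it newly and 195 lost it. Leaving out 1 library at a time gave these ranges of collagen genes called: in MC38, KO against WT 4 to 7 under PBS, 3 to 7 under anti-PD-1 and 5 to 9 averaged, anti-PD-1 against PBS 2 to 7 in KO and 0 to 0 in WT, interaction 0 to 1; in B16, 0 to 0, 1 to 4, 1 to 4, 4 to 13, 0 to 0 and 1 to 6 for the same comparisons; between lines 27 to 27 for levels and 2 to 7 for the KO difference. With all 24 libraries in 1 fit, MC38 KO against WT under PBS gave 2, the MC38 interaction 0, B16 KO against WT under anti-PD-1 4 and the B16 interaction 7. With no filter the MC38 interaction gave 0, B16 KO against WT under anti-PD-1 1, B16 anti-PD-1 against PBS in KO 7, the B16 averaged difference 1 and the KO difference between lines 1. Without the muscle-rich libraries the MC38 interaction gave 0, MC38 anti-PD-1 against PBS in KO 6, B16 KO against WT under anti-PD-1 1, B16 anti-PD-1 against PBS in KO 1, the B16 averaged difference 1, the B16 interaction 0 and the KO difference between lines 2. B16 KO against WT under anti-PD-1 gave 4 after quantile normalization, 5 on protein-coding genes and 1 on only the 6 libraries compared. With a pseudocount of 0.1 the KO difference between lines gave 0. The cause was not tested. Depth is known only as an estimate, and members under the filter could not be compared.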
